A study of Mus musculus with 10 samples.

Results

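The classical MAP kinase phosphatases are the 10 genes Dusp1, Dusp2, Dusp4, Dusp5, Dusp6, Dusp7, Dusp8, Dusp9, Dusp10 and Dusp16, taken by gene symbol from a table of 24640 genes. All 10 were in the table, and 9 of them had enough counts to be tested. Dusp2 was not tested. Their messenger RNA was counted by RNA sequencing in brown adipocytes, the fat cell that oxidises lipid to release heat, of C57BL/6 mice. There were 10 libraries, 2 in each of 5 groups, and every library came from compound-treated or solvent-treated cells of this strain with no genetic change given. One pair of groups received DMSO, the solvent, for 1 day or for 3 days. Another pair received BML-260, a small molecule known as an inhibitor of the atypical dual-specificity phosphatase DUSP22, for 1 day or for 3 days. The last group is named only ISO in the labels, with a time of 1 day and no dose. The labels give no dose of BML-260 either. They do not say whether the libraries of a group came from separate cultures or animals, or how the adipocytes were grown. The p-values therefore rest on how far the 2 libraries of a group lie apart, taken over all 5 groups, and that spread may be purely technical.

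MAP kinases (ERK, JNK and p38) are switched on when a kinase above them phosphorylates a threonine and a tyrosine in their activation loop, and the classical phosphatases switch them off again by removing both phosphates. Each phosphatase carries a catalytic domain and a domain that docks onto particular MAP kinases. Dusp1, Dusp2, Dusp4 and Dusp5 encode nuclear enzymes whose genes are induced soon after cells are stimulated, Dusp6, Dusp7 and Dusp9 encode cytoplasmic enzymes with a preference for ERK, and Dusp8, Dusp10 and Dusp16 encode enzymes that act mostly on JNK and p38. In brown fat the p38 pathway is known to lie downstream of the beta-adrenergic receptors and cyclic AMP and to drive transcription of heat-producing genes such as Ucp1.

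The libraries held 16955918 to 21185675 counts, of which the 10 phosphatases took 0.0188% to 0.0258%. Log2 CPM, the counts scaled to a common library size, of the libraries of a group correlated across genes with r of 0.994 to 0.995. On the first principal component, which held 41.3% of the variance, the ISO libraries lay at 17.9 and 21.4, nearer to the 3-day libraries (4.9 to 29.0) than to the other libraries listed at 1 day (-28.6 to -23.2). For this reason ISO is set beside the DMSO libraries of both times. The 9 fixed markers of brown adipocytes summed to 6914 to 13792 CPM in a library, with Ucp1 at 5.10 to 32.8 CPM. Of the cell types that such a culture could also hold, 5 endothelial markers summed to at most 1.52 CPM, 3 measured macrophage and leukocyte markers to at most 7.18 CPM and 2 measured skeletal muscle markers to at most 1.42 CPM. The markers of preadipocytes and fibroblasts and those of smooth muscle were higher and differed between groups, and their values stand beside the results they move with. In bulk libraries fewer cells of a type and less RNA per cell cannot be told apart.

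Dusp10 had the highest level per length, with a mean of 16.8 CPM per kilobase of exon over the 10 libraries (range 13.3 to 20.4). Dusp1 followed at 14.5 (9.68 to 19.3) and Dusp4 at 11.8 (7.35 to 16.2), on the same scale. These 3 exchanged places between libraries, although Dusp1 was first in none. With ISO, Dusp10 (17.4 and 16.1) stood above Dusp1 (10.3 and 9.68) and Dusp4 (8.92 and 7.35). Dusp16 came next in every library, at 6.63 CPM per kilobase (6.12 to 8.34). Dusp5 (4.84) and Dusp7 (4.13) exchanged the next places, and below them Dusp8 (1.77), Dusp9 (1.57) and Dusp6 (1.40) exchanged theirs. Dusp2, the phosphatase known mainly from activated lymphocytes, was last in every library at 0.0254 to 0.129 CPM per kilobase. It had 1 to 5 counts in a library, so no difference in it was detectable at this depth. The plot of levels per kilobase shows these tiers. Their order rests on the length used, the union of all annotated exons, which for Dusp1 was 3311 bases over a span of 56539. In CPM, without length, Dusp1 (63.9 and 63.3) stood above Dusp10 (59.6 and 62.0) with DMSO at 1 day.

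**Figure D1:**
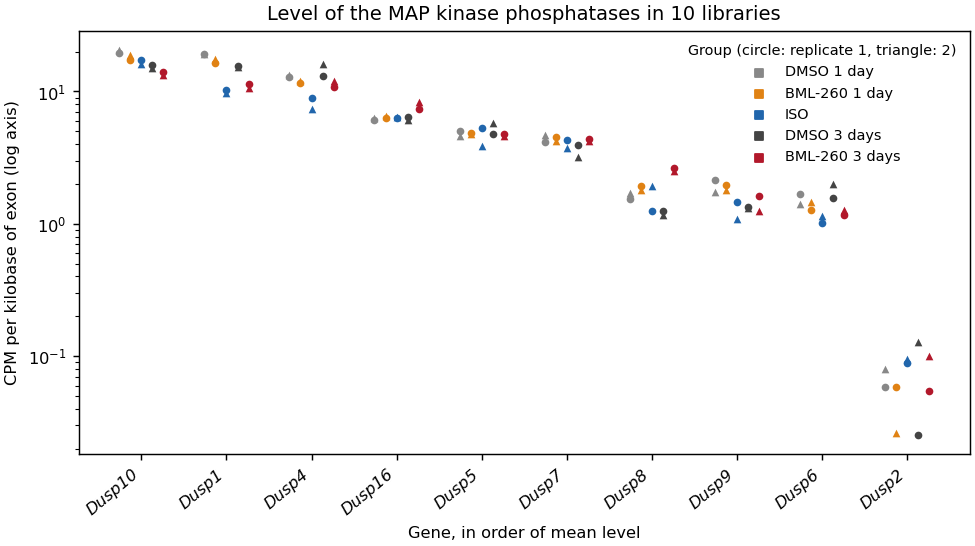
CPM per kilobase of exon (log axis) of the 10 phosphatases, in order of their mean, with 1 point per library, coloured by group. Dusp10, Dusp1 and Dusp4 lie together at the top (7.35 to 20.4), and Dusp2 lies below 0.13 in every library.

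The upstream sequences of Dusp1, Dusp8 and Dusp16 are shown because these 3 genes gave the results that differed between days 1 and 3 of BML-260. They are the RefSeq sequence before the transcription start, on build GRCm38.p6 and on the strand of the gene, 5′ to 3′. Capitals mark the cyclic AMP response element TGACGTCA and its shorter core TGACG, which the element contains. The Dusp1 stretch is chr17:26508520-26508722 (minus strand, 203 bases, without 47 bases that lie in an exon of Dusp1), the Dusp8 stretch is chr7:142095285-142095534 (minus strand, 250 bases) and the Dusp16 stretch is chr6:134792629-134792878 (minus strand, 250 bases).
Dusp1: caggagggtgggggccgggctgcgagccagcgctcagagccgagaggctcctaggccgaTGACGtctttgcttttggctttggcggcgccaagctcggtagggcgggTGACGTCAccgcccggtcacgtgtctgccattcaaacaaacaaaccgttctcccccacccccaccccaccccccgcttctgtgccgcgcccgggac
Dusp8: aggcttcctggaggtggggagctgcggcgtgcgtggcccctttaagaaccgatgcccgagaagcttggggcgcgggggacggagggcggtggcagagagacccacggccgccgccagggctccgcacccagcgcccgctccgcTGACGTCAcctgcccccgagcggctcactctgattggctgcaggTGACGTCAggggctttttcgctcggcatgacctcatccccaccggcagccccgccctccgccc
Dusp16: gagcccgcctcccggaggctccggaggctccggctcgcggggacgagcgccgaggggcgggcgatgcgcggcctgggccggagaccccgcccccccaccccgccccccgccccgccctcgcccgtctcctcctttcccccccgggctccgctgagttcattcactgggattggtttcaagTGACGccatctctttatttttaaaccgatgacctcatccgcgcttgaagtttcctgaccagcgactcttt

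The full element stood once before Dusp1, 143 bases ahead of the start, and in 2 places before Dusp8, 107 and 63 bases ahead. Dusp16 had only the core, 70 bases ahead of the start, and Dusp1 had a further core 191 bases ahead. Windows of 300 bases (250 before to 50 after the start) were found for 8 of the 10 genes, all but Dusp4 and Dusp9. Of all 32851 windows of this length, 1.79% held TGACGTCA and 20.8% held TGACG on either strand. Of the other 5 genes with a window, Dusp5 and Dusp2 had the core and none had the full element. Dusp5 also had a pair of CArG boxes, the binding motif of serum response factor, 82 and 72 bases ahead of the start, and 1.63% of windows hold at least 1 such box. CCAAT, present in 37.4% of windows, stood in those of Dusp6, Dusp7, Dusp8, Dusp10 and Dusp16. The AP-1 motif TGANTCA (7.81% of windows) and TATAAA (13.6%) had no match in the 8 windows. The motifs were chosen after the sequences had been seen, both strands were searched, and a match is a run of letters, not a measured binding site.

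**Figure D2:**
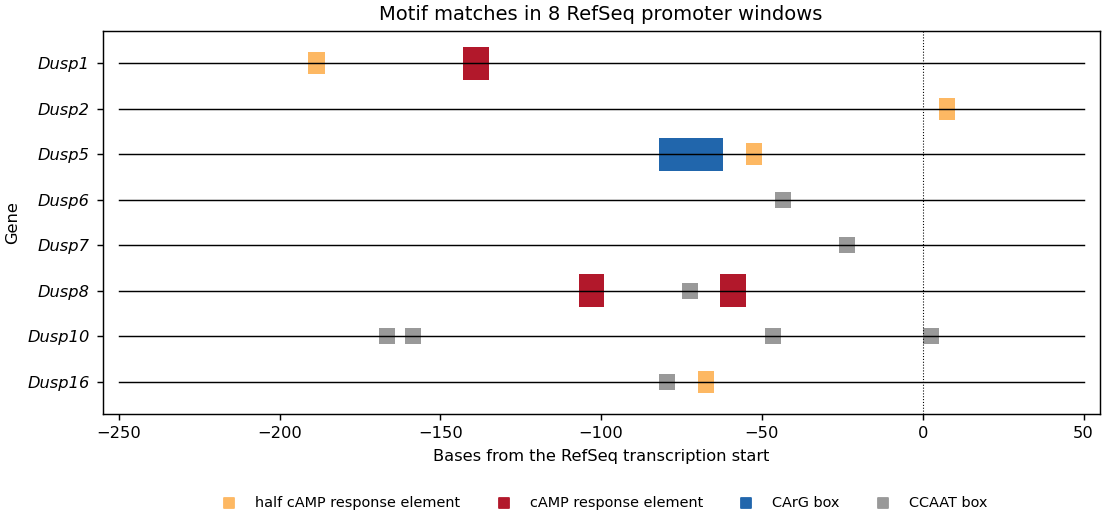
Positions of motif matches in the 8 RefSeq windows, in bases from the transcription start (dotted line), with 1 horizontal line per gene and 1 colour per motif. The full cyclic AMP response element appears before Dusp1 (1 place) and Dusp8 (2 places).

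BML-260 changed 1 of the 9 tested phosphatases at 1 day and 7 of 9 at 3 days, by edgeR's quasi-likelihood test with Benjamini-Hochberg adjustment over 15212 genes (adjusted p under 0.05, here called a change). Over all genes tested, 17.9% changed at 1 day (9.32% higher and 8.61% lower) and 35.5% at 3 days (17.2% higher and 18.3% lower). At 3 days Dusp8, Dusp16 and Dusp7 rose and Dusp1, Dusp4, Dusp6 and Dusp10 fell, while Dusp5 and Dusp9 did not pass the test. Against DMSO at 1 day, ISO changed 5 of 9, all lower, where 41.7% of all genes changed and 20.3% fell. Against DMSO at 3 days, a comparison chosen after the data had been seen, ISO changed 3 of 9, all lower, where 19.9% of all genes changed and 9.25% fell. With BML-260 at 1 day set against ISO, 3 of 9 were higher, where 44.4% of all genes changed and 21.6% were higher. The effect of BML-260 at 3 days differed from that at 1 day for 3 of 9, upward for Dusp8 and Dusp16 and downward for Dusp1, where it did for 8.46% of all genes (3.93% upward and 4.53% downward). These comparisons share groups and are not independent of each other.

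The median log2 fold change of the 9 genes was -0.03 for BML-260 at 1 day and -0.18 at 3 days, beside -0.001 and -0.016 over all genes tested. It was -0.26 for ISO against DMSO at 1 day (all genes -0.003) and -0.07 against DMSO at 3 days (all genes -0.002). Counts of changes depended on single libraries. Without DMSO 3 days replicate 2, BML-260 changed 3 phosphatases at 3 days, namely Dusp8, Dusp16 and Dusp1. For ISO against DMSO at 1 day 3 changes were left without DMSO 1 day replicate 1 or without ISO replicate 2. ISO against DMSO at 3 days gave 5 without ISO replicate 1, where Dusp5 (-0.44) and Dusp8 (0.68) also passed. In this paragraph every count comes from edgeR's quasi-likelihood test refitted to the libraries left.

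**Figure D3:**
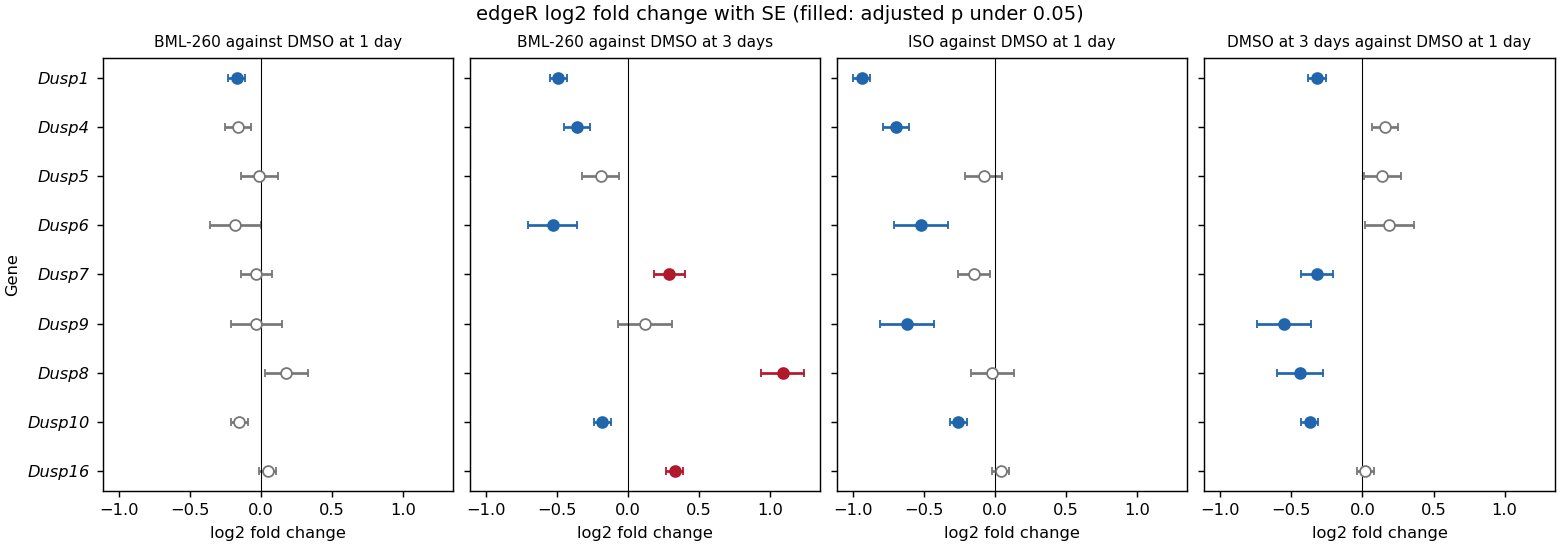
edgeR log2 fold change (x axis) of the 9 tested phosphatases (y axis) in 4 comparisons, with bars of 1 SE and filled points where the adjusted p was under 0.05. Dusp8 stands at 1.09 with BML-260 at 3 days, and Dusp1 lies below 0 in all 4 panels.

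Dusp1 encodes MKP-1, an immediate-early phosphatase of p38, JNK and ERK. It stood at 63.9 and 63.3 CPM with DMSO at 1 day, 54.2 and 58.6 with BML-260 at 1 day, and 34.2 and 32.1 with ISO. At 3 days it stood at 51.3 and 50.8 CPM with DMSO and at 37.3 and 35.5 with BML-260. The ISO libraries were the lowest of the 10, next came those of BML-260 at 3 days, and no group's range overlapped another's. Against DMSO of the same time BML-260 gave a log2 fold change of -0.17 at 1 day (SE 0.06, adjusted p = 0.041) and of -0.49 at 3 days (SE 0.06, adjusted p = 6.9e-07). ISO gave -0.94 against DMSO at 1 day (SE 0.06, adjusted p = 3.9e-12), a 1.93-fold lower level, and -0.63 against DMSO at 3 days (SE 0.06, adjusted p = 9.7e-08). Dusp1 was also lower in DMSO at 3 days than at 1 day, by -0.32 (SE 0.06, adjusted p = 0.00011). The fall with BML-260 at 1 day was small and not stable: DESeq2 gave the same fold change with an adjusted p of 0.15, and edgeR gave 0.13, 0.14 and 0.33 on leaving out DMSO 1 day replicate 1, DMSO 1 day replicate 2 or BML-260 1 day replicate 1. An exon of Dusp1 shares 11 bases with Ergic1 on the opposite strand, and no source used here says whether the counting used strand.

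Dusp4 encodes MKP-2, a nuclear phosphatase of ERK and JNK. Its levels were 35.5 and 36.4 CPM with DMSO at 1 day, 31.8 and 32.8 with BML-260 at 1 day, and 24.4 and 20.1 with ISO. At 3 days they were 35.8 and 44.3 CPM with DMSO and 29.5 and 32.7 with BML-260. The ISO libraries were again the lowest of all, and both BML-260 groups lay below DMSO of the same time without overlap. ISO lowered Dusp4 by edgeR's test against DMSO at 1 day (log2 fold change -0.70, SE 0.09, adjusted p = 1.2e-06) and against DMSO at 3 days (-0.86, SE 0.09, adjusted p = 2.7e-07). With BML-260 it fell at 3 days (-0.36, SE 0.09, adjusted p = 0.0019), and at 1 day the difference of -0.16 (SE 0.09, interval -0.34 to 0.03) did not pass the test. The 3-day fall rested on DMSO 3 days replicate 2, the highest library, without which it was -0.17 (edgeR adjusted p = 0.21).

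Dusp5, an ERK phosphatase of the nucleus, stayed between 9.64 and 14.4 CPM, and both of these values came from single libraries whose partners lay inside the range. With BML-260 the log2 differences were -0.01 at 1 day (interval -0.27 to 0.26) and -0.19 at 3 days (-0.44 to 0.07), and ISO against DMSO at 1 day gave -0.08 (-0.35 to 0.19). None of these passed edgeR's test. An antisense gene shares 547 bases of exon with Dusp5, so reads of this pair may have been counted together. The values of every gene and library are drawn in the plot of CPM by group.

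**Figure D4:**
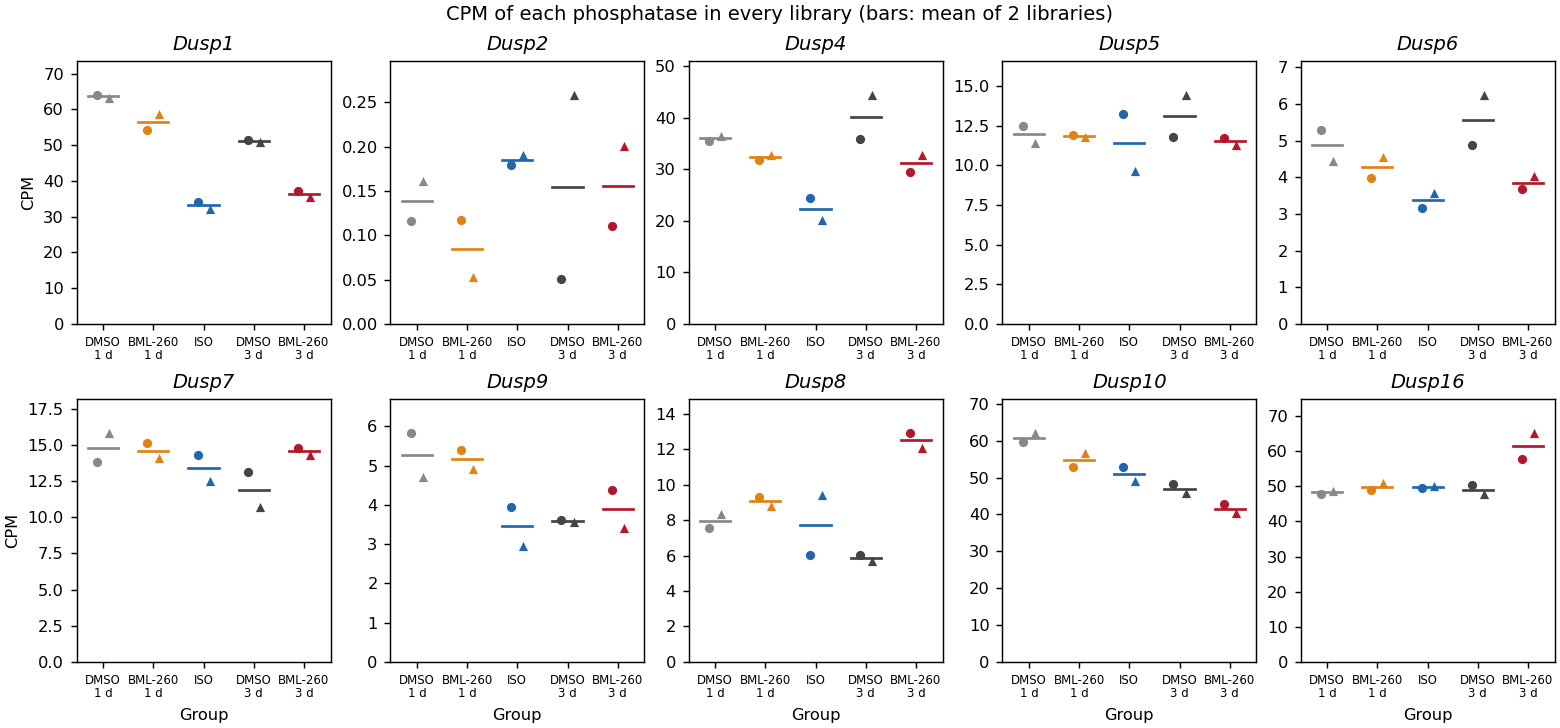
CPM (y axis, from 0) of each of the 10 phosphatases in the 5 groups (x axis), with a circle for replicate 1, a triangle for replicate 2 and a bar at their mean. Dusp8 is highest in BML-260 at 3 days (12.9 and 12.1 CPM), and Dusp1 is lowest with ISO (34.2 and 32.1 CPM).

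Dusp6 encodes MKP-3, the cytoplasmic ERK phosphatase that ERK signalling itself induces. It was read at 5.29 and 4.45 CPM with DMSO at 1 day, 3.99 and 4.54 with BML-260 at 1 day, and 3.17 and 3.58 with ISO. At 3 days it was at 4.88 and 6.23 CPM with DMSO and at 3.67 and 4.02 with BML-260. ISO and BML-260 at 3 days lay below the DMSO groups without overlap, on 53 to 121 counts a library. edgeR's test called it lower with BML-260 at 3 days (log2 fold change -0.53, SE 0.17, adjusted p = 0.020), with ISO against DMSO at 1 day (-0.52, SE 0.19, adjusted p = 0.027) and with ISO against DMSO at 3 days (-0.71, SE 0.18, adjusted p = 0.0056). At 1 day of BML-260 the difference was -0.18 (interval -0.55 to 0.18). DESeq2 gave adjusted p-values of 0.11 for BML-260 at 3 days and 0.11 for ISO against DMSO at 1 day, with fold changes of -0.51 and -0.52. Without DMSO 3 days replicate 2 the value for BML-260 was -0.31 (edgeR adjusted p = 0.3) and for ISO against DMSO at 3 days -0.51 (0.13), and without BML-260 3 days replicate 1 the former was -0.46 (0.11). ISO against DMSO at 1 day lost the call without DMSO 1 day replicate 1 (-0.39), without ISO replicate 1 (-0.44) and without ISO replicate 2 (-0.61).

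Dusp7, a close relative of Dusp6 with the same preference for ERK, moved the other way at 3 days. It was at 13.1 and 10.7 CPM with DMSO at 3 days and at 14.8 and 14.3 with BML-260, or 0.29 on the log2 scale (edgeR adjusted p = 0.046, SE 0.11). DMSO 3 days replicate 2 (10.7 CPM) was the lowest of all libraries, while replicate 1 of that group (13.1 CPM) lay above ISO replicate 2. DMSO at 1 day was at 13.8 and 15.8 CPM and fell by 0.32 on the log2 scale to 3 days (SE 0.11, edgeR adjusted p = 0.029). BML-260 at 1 day (15.1 and 14.1 CPM) and ISO (14.3 and 12.5 CPM) overlapped DMSO at 1 day. The rise at 3 days was 0.18 without DMSO 3 days replicate 2 (edgeR adjusted p = 0.35), 0.26 without BML-260 3 days replicate 1 (0.16) and 0.31 without replicate 2 of that group (0.1), and DESeq2 gave 0.31 (adjusted p = 0.11). The fall over time in DMSO was -0.22 without DMSO 1 day replicate 2 (edgeR adjusted p = 0.27), -0.19 without DMSO 3 days replicate 2 (0.33) and -0.32 by DESeq2 (0.093).

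Dusp9 encodes MKP-4, a cytoplasmic phosphatase linked to insulin action. It stood at 5.82 and 4.72 CPM with DMSO at 1 day, 5.40 and 4.91 with BML-260 at 1 day, and 3.94 and 2.96 with ISO. At 3 days it stood at 3.61 and 3.55 CPM with DMSO and at 4.38 and 3.42 with BML-260. The ISO and 3-day libraries all lay below the others listed at 1 day. ISO was lower than DMSO at 1 day (log2 fold change -0.62, SE 0.19, edgeR adjusted p = 0.0093), BML-260 at 1 day was higher than ISO (0.59, SE 0.19, adjusted p = 0.012), and DMSO fell over time (-0.55, SE 0.19, adjusted p = 0.022). Against DMSO at 3 days, ISO was at -0.07 (interval -0.48 to 0.34). BML-260 against DMSO was at -0.03 at 1 day (-0.39 to 0.33) and at 0.12 at 3 days (-0.28 to 0.52). By DESeq2 the adjusted p of the 3 changes was 0.053, 0.064 and 0.087. By edgeR the first was lost without DMSO 1 day replicate 1 (-0.47) or ISO replicate 2 (-0.41), BML-260 against ISO without BML-260 1 day replicate 1 (0.52) or ISO replicate 2 (0.38), and the change over time without DMSO 1 day replicate 1 (-0.40), DMSO 3 days replicate 1 (-0.57) or DMSO 3 days replicate 2 (-0.55).

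Dusp8 encodes M3/6, a phosphatase of JNK and p38 first described in brain. It was at 7.56 and 8.37 CPM with DMSO at 1 day, 9.33 and 8.81 with BML-260 at 1 day, and 6.04 and 9.40 with ISO. At 3 days it was at 6.05 and 5.67 CPM with DMSO and at 12.9 and 12.1 with BML-260. The BML-260 libraries of 3 days were the highest of the 10, and those of DMSO at 3 days were among the lowest, while 1 ISO library lay with DMSO at 3 days and the other above DMSO at 1 day. BML-260 raised Dusp8 2.13-fold at 3 days (log2 fold change 1.09, SE 0.15, edgeR adjusted p = 1.9e-06), in all 10 alternative settings as well. At 1 day the difference was 0.18 (SE 0.15, interval -0.13 to 0.50) and did not pass the test. From 1 to 3 days Dusp8 rose with BML-260 (0.47, SE 0.14, edgeR adjusted p = 0.0077) and fell with DMSO (-0.44, SE 0.16, edgeR adjusted p = 0.034). The rise over time was 0.42 without BML-260 1 day replicate 2 (edgeR adjusted p = 0.055) and 0.42 without BML-260 3 days replicate 1 (0.0504). The fall over time lost the call by DESeq2 (-0.45) and without either library of DMSO at 1 day (-0.51 and -0.37) or of DMSO at 3 days (-0.50 and -0.41). An exon of Dusp8 shares 66 bases with the opposite-strand gene Gm32786.

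Dusp10 encodes MKP-5, which acts on JNK and p38 in the cytoplasm and the nucleus. It was at 59.6 and 62.0 CPM with DMSO at 1 day, 53.0 and 56.8 with BML-260 at 1 day, and 52.9 and 49.0 with ISO. At 3 days it was at 48.2 and 45.8 CPM with DMSO and at 42.8 and 40.4 with BML-260. The level fell from 1 to 3 days in both series, by 0.37 on the log2 scale with DMSO (SE 0.06, edgeR adjusted p = 2.7e-05) and by 0.40 with BML-260 (SE 0.06, edgeR adjusted p = 8.6e-06). ISO was lower than DMSO at 1 day (log2 fold change -0.26, SE 0.06, edgeR adjusted p = 0.0012) and at 0.11 against DMSO at 3 days (interval -0.01 to 0.24). BML-260 gave -0.15 at 1 day (interval -0.27 to -0.02, edgeR adjusted p = 0.095) and -0.18 at 3 days (SE 0.06, edgeR adjusted p = 0.033). The 3-day fall was lost in 6 of 10 settings, among them DESeq2 (-0.16, adjusted p = 0.16) and the fits without DMSO 3 days replicate 1 (-0.11), DMSO 3 days replicate 2 (-0.18) or BML-260 3 days replicate 2 (-0.13).

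Dusp16 encodes MKP-7, a phosphatase of JNK and p38 that shuttles between nucleus and cytoplasm. In the 8 libraries other than BML-260 at 3 days it kept within 47.7 to 50.9 CPM. BML-260 at 3 days stood above all of them, at 57.9 and 65.1 CPM. The log2 fold change against DMSO at 3 days was 0.33 (SE 0.06, edgeR adjusted p = 0.00013), and against BML-260 at 1 day it was 0.30 (SE 0.06, edgeR adjusted p = 0.00024). Both calls held in all 10 alternative settings. BML-260 at 1 day was at 0.05 (interval -0.08 to 0.18) and ISO against DMSO at 1 day at 0.04 (-0.09 to 0.17).

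Added up by class, the 4 nuclear inducible genes gave 112 and 111 CPM with DMSO at 1 day, 98.0 and 103 with BML-260 at 1 day, and 72.0 and 62.0 with ISO. They gave 99.0 and 110 CPM with DMSO at 3 days and 78.6 and 79.8 with BML-260 at 3 days. Most of this sum is Dusp1 and Dusp4, and it was lowest with ISO. The 3 genes selective for JNK and p38 summed to between 99.2 and 119 CPM over all libraries. At 3 days their sum was 105 and 99.2 CPM with DMSO and 114 and 118 with BML-260. There Dusp8 and Dusp16 were higher with BML-260 than with DMSO, and Dusp10 was lower. The 3 cytoplasmic ERK-selective genes stayed between 19.1 and 25.0 CPM. No test was made of these sums.

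**Figure D5:**
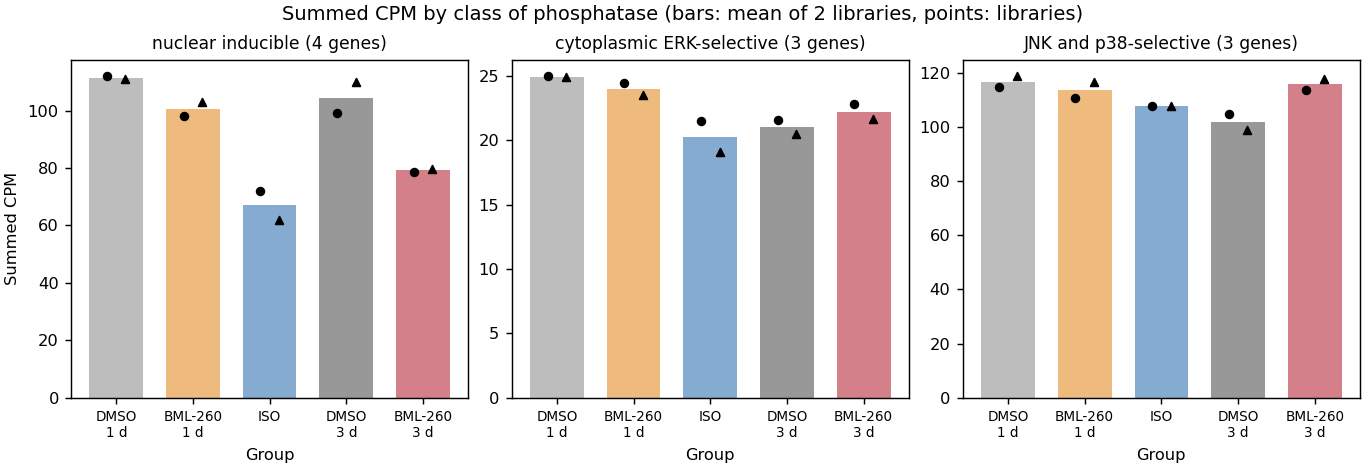
Summed CPM (y axis, from 0) of the phosphatases by class in the 5 groups (x axis), with bars at the mean of 2 libraries and points for the libraries. The nuclear inducible sum is lowest with ISO (72.0 and 62.0 CPM), and the JNK and p38 sum spans 99.2 to 119 CPM.

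The markers of preadipocytes and fibroblasts and of smooth muscle moved with some of these results. The 8 fixed preadipocyte and fibroblast markers summed to 296 to 310 CPM with DMSO at 1 day, 193 to 207 with BML-260 at 1 day and 468 to 498 with ISO. They summed to 515 to 562 CPM with DMSO at 3 days and to 299 to 309 with BML-260 at 3 days. Fbn1 (98.5 to 337 CPM) made up much of this sum. Cd34, at 1 to 7 counts a library, and Dcn, at 0 to 18, were near 0, and Ly6a was at 1.81 to 8.13 CPM. The 6 smooth muscle markers summed to 179 with DMSO at 1 day, 108 to 118 with BML-260 at 1 day, 174 to 200 with ISO, 226 to 236 with DMSO at 3 days and 101 to 111 with BML-260 at 3 days. Both sums were lower with BML-260 than with DMSO of the same time, as Dusp1, Dusp4 and Dusp6 were at 3 days. With ISO the preadipocyte sum was above that of DMSO at 1 day, whereas Dusp1 and Dusp4 were below it. Against DMSO at 3 days both sums were lower with ISO, as Dusp1, Dusp4 and Dusp6 were. The 9 brown adipocyte markers summed to 9861 to 10006 CPM with DMSO at 1 day, 13293 to 13792 with BML-260 at 1 day, 6914 to 7226 with ISO, 7421 to 7593 with DMSO at 3 days and 7695 to 7901 with BML-260 at 3 days. Most of this brown adipocyte sum was Fabp4. The part of all these cell types in the phosphatase results was not tested.

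The change made by BML-260 between days 1 and 3 was tested as a difference of effects. Dusp8 gave 0.91 on the log2 scale (SE 0.21, edgeR adjusted p = 0.0079), Dusp1 gave -0.32 (SE 0.09, adjusted p = 0.020) and Dusp16 gave 0.28 (SE 0.09, adjusted p = 0.0498). For Dusp8 part of the difference lies in the DMSO libraries, which fell while those of BML-260 rose. For Dusp16 the DMSO groups were at 47.8 and 48.8 CPM (1 day) and 50.4 and 47.7 CPM (3 days). The count of 3 dropped to 0 without DMSO 1 day replicate 2 (Dusp8 then at 0.83, edgeR adjusted p = 0.057) and to 1 without BML-260 1 day replicate 2, DMSO 3 days replicate 1, DMSO 3 days replicate 2 or BML-260 3 days replicate 2. By DESeq2 the adjusted p of Dusp1 was 0.096 and that of Dusp16 was 0.11. Over all settings tried the call was lost for Dusp16 in 10 of 14, for Dusp1 in 6 of 14 and for Dusp8 in 1 of 14.

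Over time in the solvent control, 5 of 9 phosphatases fell from 1 to 3 days of DMSO and none rose, where 34.9% of all genes changed, 18.1% upward and 16.8% downward. They were Dusp1, Dusp7, Dusp8, Dusp9 and Dusp10, with the values given above. Dusp4 (0.16, interval -0.02 to 0.33), Dusp5 (0.14), Dusp6 (0.19) and Dusp16 (0.02) did not pass edgeR's test. With BML-260, 4 of 9 changed over the same time (46.4% of all genes), Dusp1 by -0.64 and Dusp10 by -0.40, Dusp8 by 0.47 and Dusp16 by 0.30. The DMSO count was 3 without either library of DMSO at 1 day and 2 without DMSO 3 days replicate 2. Without DMSO 3 days replicate 1 it was 4, with 3 lower and Dusp4 higher (0.29, edgeR adjusted p = 0.023).

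Among genes that ERK signalling is known to induce or that feed back on it, 12 of 23 tested fell and 2 rose with BML-260 at 3 days, with a median log2 fold change of -0.27 (all genes -0.016). Of all genes 18.3% fell and 17.2% rose in that comparison. The immediate-early transcription factor Egr1 went from 253 and 281 CPM with DMSO to 176 and 171 with BML-260 (log2 fold change -0.62, SE 0.05, edgeR adjusted p = 2.6e-10). Errfi1, an inhibitor of the EGF receptor, went from 94.3 and 91.2 CPM to 51.1 and 52.5 (-0.84, SE 0.07, edgeR adjusted p = 5.4e-10). Neither gene's groups overlapped. Egr2 (-0.98) and Spry2, an inhibitor of receptor tyrosine kinase signalling (-0.51), fell as well. At 1 day 5 of 23 fell and none rose, where 8.61% of all genes fell and 9.32% rose (median -0.20, all genes -0.001). They included Egr1 (-0.31), Errfi1 (-0.45), Egr2 (-0.68) and Egr3 (-0.63). The 1-day count was 3 by DESeq2 and 3 without DMSO 1 day replicate 2, and Egr3 lost the call by DESeq2 (adjusted p = 0.063) and, at -0.45 and -0.56, without DMSO 1 day replicate 2 or BML-260 1 day replicate 2.

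With ISO against DMSO at 1 day, 6 of 23 were lower and 2 higher (median 0.04), where 41.7% of all genes changed, 20.3% lower and 21.4% higher. Spry4 (-1.07) and Egr3 (-0.91) fell and Ier3 (1.09) rose. The receptor gene Il1rl1 rose too (1.69, SE 0.39), but at low means of 1.57 CPM with ISO and 0.481 with DMSO. Without DMSO 1 day replicate 2 the counts were 3 lower and 2 higher. Against DMSO at 3 days 11 fell and 1 rose (median -0.29), where 9.25% of all genes fell and 10.6% rose. Ier3 with ISO (47.3 and 48.9 CPM) overlapped DMSO at 3 days (45.1 and 48.1 CPM). Spry4, at means of 11.8 CPM with ISO and 24.7 with DMSO at 1 day, was at 13.5 and 14.6 with DMSO at 3 days. Its ISO libraries lay below these values. Egr3 (5.79 and 5.82 CPM with DMSO at 3 days, 3.29 and 3.10 with ISO) did not overlap. Nor did Il1rl1 (0.915 and 1.03 CPM, with ISO at 1.85 and 1.29). With DMSO alone 10 of 23 rose and 1 fell from 1 to 3 days (median 0.30), or 6 and 1 without DMSO 1 day replicate 1 or DMSO 3 days replicate 2. Of all genes 18.1% rose and 16.8% fell from 1 to 3 days of DMSO. Dusp1 fell over the same time in the same libraries.

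Of 15 effectors of JNK and p38, 6 rose and 2 fell with BML-260 at 3 days, beside 17.2% and 18.3% of all genes. Mef2d, a transcription factor that p38 phosphorylates, rose by 0.47 (SE 0.06, edgeR adjusted p = 1.8e-07), the p38-regulated kinase Mapkapk5 by 0.30 and Mknk1 by 0.29, and the nuclear kinase Rps6ka5 fell by 0.37. At 1 day 1 rose (Mapkapk5, 0.20) and 2 fell (Jun, -0.25, and Mknk2, -0.13), and none of these 3 was called without DMSO 1 day replicate 2. Of all genes 17.9% changed at 1 day. With ISO against DMSO at 1 day 9 of 15 rose and 1 fell, beside 21.4% and 20.3% of all genes. Junb, an AP-1 subunit, went from 34.9 and 46.4 CPM to 66.9 and 70.4 (log2 fold change 0.75, SE 0.09, edgeR adjusted p = 6.7e-08), without overlap. Zfp36, an mRNA-destabilising protein (0.52), and Mef2d (0.37) rose and Atf2 (-0.27) fell. Set against DMSO at 3 days, ISO had 6 of 15 higher and 0 lower, beside 10.6% and 9.25% of all genes. Junb (61.4 and 69.7 CPM with DMSO at 3 days) then overlapped ISO. So did Zfp36 (48.8 and 56.1 CPM, with ISO at 48.9 and 53.5). Mef2d (80.9 and 85.3 CPM, with ISO at 102 and 113) and Atf2 (81.3 and 74.9, with ISO at 70.9 and 72.0) did not. The 3-day counts were 4 and 1 without BML-260 3 days replicate 2, and Rps6ka5 lost the call without DMSO 3 days replicate 1 (-0.25, edgeR adjusted p = 0.092).

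For the lists that follow, the share of all genes that changed was 17.9% with BML-260 at 1 day, 35.5% at 3 days and 41.7% with ISO against DMSO at 1 day. Of 12 MAP kinases tested, 1 changed with BML-260 at 1 day (Mapk6, an atypical MAP kinase, -0.22), 3 at 3 days (Mapk6 0.35, Mapk7 0.26 and the p38 alpha gene Mapk14 -0.25) and 5 with ISO against DMSO at 1 day, among them the ERK1 gene Mapk3 (0.38), Mapk7 (0.34), Mapk6 (0.18) and Mapk14 (-0.29). Among 23 kinases above them, 1 changed with BML-260 at 1 day, 7 at 3 days and 10 with ISO. These counts were 3 at 1 day without DMSO 1 day replicate 1, 3 at 3 days without BML-260 3 days replicate 2 and 6 with ISO without ISO replicate 2. Map3k1, a kinase that feeds the JNK pathway, was lower with BML-260 at both times (-0.45 and -0.42). It was higher with ISO than with DMSO at 1 day (0.29). With ISO (158 and 157 CPM) Map3k1 overlapped DMSO at 3 days (170 and 155 CPM). Of 8 other phosphatases that act on MAP kinases, 2 changed with BML-260 at 1 day (Ppp2ca 0.18, and Ptpn5 -2.15 at a mean of 0.144 against 0.642 CPM) and 1 with ISO (Ptpn5, 1.09). Ptpn5 lost the first call without DMSO 1 day replicate 2 or BML-260 1 day replicate 2 and the call with ISO without either DMSO 1 day library or ISO replicate 2, and Ppp2ca lost its own without DMSO 1 day replicate 2. At 3 days 3 of the 8 changed, the p38 phosphatase gene Ppm1d falling by 0.38 and the protein phosphatase 2A subunits Ppp2r1a (0.24) and Ppp2ca (0.15) rising. Of 8 scaffolds, 3 changed at 1 day (Ksr1 -0.24, Arrb1 -0.18 and Pea15a -0.17), 3 at 3 days (the JNK scaffold Mapk8ip3 0.36, Arrb1 -0.32 and Ksr1 -0.16) and 5 with ISO, where the ERK scaffold Ksr1 (0.44) and Mapk8ip3 (0.37) were higher. All calls in this paragraph are edgeR's. Mapk6 at 1 day lost its call without BML-260 1 day replicate 2 and with ISO without ISO replicate 2, Mapk7 at 3 days without BML-260 3 days replicate 2, Ppp2ca at 3 days without DMSO 3 days replicate 2 or BML-260 3 days replicate 1, and Arrb1, Pea15a and Ksr1 at 1 day and Ksr1 at 3 days in at least 1 such fit each.

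Across the 10 libraries, Dusp4 and Dusp6 varied most alike of the 9 tested phosphatases (Pearson r of log2 CPM 0.85), and Dusp8 and Dusp16 had r of 0.74. Dusp10 and Dusp16 varied oppositely (-0.73). Among 9094 genes of at least 10 CPM, the ones most like Dusp1 were Son (0.979), Zfp644 (0.977) and Wnt5a (0.976). For Dusp4 they included Lbh (0.980) and Borcs8 (0.941), and for Dusp8 they were AK040485 (0.953), Scap (0.943) and Ensa (0.935). The points are 10 libraries in 5 groups, so these values describe differences between groups as well as between libraries.

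The authors' deposited tables list 4 of the 10 genes for BML-260 against DMSO at 3 days and 0 for 1 day. In the authors' deposited table for 3 days the log2 fold changes were 0.869 for Dusp8 (adjusted p = 1.6e-06), -0.446 for Dusp1 (2.1e-05), 0.322 for Dusp16 (0.0024) and -0.318 for Dusp4 (0.023). In the authors' deposited table that sets DMSO and BML-260 of both times against ISO, 3 of the genes are listed, with values positive where ISO is lower. There Dusp4 had 0.534 (adjusted p = 0.0072), Dusp1 0.452 (adjusted p = 0.19) and Dusp6 0.310 (adjusted p = 0.52). The name of this table gives a cut at p 0.05. Those for 1 and 3 days give FRD 0.05, read here as an adjusted p, so the lists are not cut alike. Dusp22, the named target of BML-260 and no member of the classical family, was at 63.9 to 80.2 CPM. edgeR's test gave it 0.07 with BML-260 at 1 day (interval -0.05 to 0.19) and -0.06 at 3 days (-0.18 to 0.06). From 1 to 3 days Dusp22 fell with BML-260 (-0.22, SE 0.06, edgeR adjusted p = 0.0028). With DMSO it was at -0.09 over that time (interval -0.21 to 0.03) and was not called. The effect of BML-260 on Dusp22 at 3 days minus that at 1 day was -0.13 (interval -0.29 to 0.04). That difference did not pass edgeR's test, so the fall is not shown to differ from the course with DMSO. Of all genes 46.4% changed from 1 to 3 days of BML-260.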

How the data were processed

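Total RNA of 10 libraries was sequenced, per the labels, and the submitters' processing notes name DESeq2, bedtools, TopHat2 2.1.1 and bcl2fastq 2.17.1.14, with builds mm9 and mm10 and no role for either. The authors deposited raw counts per gene symbol, and in 6 smaller tables log2 fold changes with p-values and adjusted p-values. No annotation or strand setting is given in the sources used here. All 54524 counts in the smaller tables equalled those of the table of all genes. In 26 entries the symbol had become a date, and these were kept.

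Samples were grouped by titles and treatment labels. The members, gene lists and tests were chosen with earlier results of these data known. edgeR 4.0.16 in R 4.3.3 was run with TMM normalization, filterByExpr by group (minimum count 10, minimum total 15, 15212 genes left) and its quasi-likelihood model with a mean for each group, fitted to all 10 libraries (5 residual degrees of freedom), with Benjamini-Hochberg adjustment and a threshold of 0.05. SE was derived from the F statistic (the size of the log2 fold change over the root of F), and intervals are 95% intervals from it. The common dispersion was 0.00115, a coefficient of variation of 3.39%. CPM used TMM-scaled library sizes (prior count 2 on the log2 scale), and levels per kilobase used the union of GENCODE M21 exons on GRCm38. Named are all 10 phosphatases, up to 4 genes of smallest p per list in 3 comparisons, and for the 3 phosphatases of widest range the 3 genes of highest r, of which 1 is not reported here. Alternatives were DESeq2 size factors, upper-quartile scaling, DESeq2 1.42.0, no filter, only the groups compared, a replicate block and leaving out each library.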

Additional observations from a re-analysis of the deposited data

Results flagged for a closer look

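These 3 results stood out because the effect of BML-260 at 3 days differed from its effect at 1 day by a test of that difference itself (edgeR's quasi-likelihood test, Benjamini-Hochberg adjusted). The difference, 3 days minus 1 day on the log2 scale, was 0.91 for Dusp8, -0.32 for Dusp1 and 0.28 for Dusp16, with adjusted p of 0.0079, 0.020 and 0.0498. At 1 day the effects were 0.18, -0.17 and 0.05, and at 3 days 1.09, -0.49 and 0.33, in the same order. The call was lost in 1 of 14 alternative settings for Dusp8, in 6 of 14 for Dusp1 and in 10 of 14 for Dusp16, by DESeq2 for both of the latter. Among all 15212 genes 8.46% differed in this way.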

How the results depend on the processing

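Of 31 changes called over the 8 comparisons of 9 phosphatases, 15 held in every alternative. Among them were Dusp8, Dusp16 and Dusp1 with BML-260 at 3 days, and Dusp1, Dusp4 and Dusp10 with ISO against DMSO at 1 day. By DESeq2 the number of phosphatases called was 0 for BML-260 at 1 day, 4 at 3 days, 3 for ISO against DMSO at 1 day, 2 for DMSO over time and 1 for the difference of effects, beside 1, 7, 5, 5 and 3 by edgeR. Without a filter on low counts it was 0 for BML-260 at 1 day. With 1 library left out the numbers ran from 0 to 1 (BML-260 at 1 day), 3 to 6 (3 days), 3 to 5 (ISO against DMSO at 1 day), 2 to 5 (ISO against DMSO at 3 days), 2 to 4 (DMSO over time) and 0 to 3 (difference of effects). These fits hold fewer libraries, and for the other settings the cause was not tested. Over all genes the difference of effects was called for 767 by DESeq2 and 1287 by edgeR. Upper-quartile scaling turned the split of all genes for ISO against DMSO at 1 day from 3255 higher and 3084 lower to 2588 and 3831, and at 3 days from 1620 and 1407 to 1234 and 1817. It also turned which direction held more genes for BML-260 at 1 day (1418 higher and 1309 lower to 1216 and 1423). The same held for DMSO over time (2755 and 2560 to 2409 and 2844) and BML-260 against ISO (3288 and 3465 to 3821 and 2987). DESeq2 size factors turned the split for BML-260 at 3 days against DMSO (2624 and 2783 to 2957 and 2518). They also turned it for BML-260 at 3 days against 1 day (3486 and 3565 to 3620 and 3448). For the difference of effects they turned 598 and 689 to 731 and 624. Other settings turned some of these splits too. With upper-quartile scaling the difference of effects in the phosphatases went from 2 higher and 1 lower to 1 and 1.

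The differences whose sign turned were all ones not called with all 10 libraries. With upper-quartile scaling Dusp16 was at -0.01 for ISO against DMSO at 1 day and at 3 days. For BML-260 at 3 days against 1 day Dusp7 was at 0.01 with DESeq2 size factors, by DESeq2 and with no filter, and at 0.00 with only the groups compared. With 1 library left out, the lowest and highest values of differences that turned were -0.08 to 0.04 (Dusp10 in BML-260 effect at 3 days minus effect at 1 day), -0.01 to 0.03 (Dusp16 in BML-260 against ISO), -0.03 to 0.05 (Dusp16 in DMSO at 3 days against DMSO at 1 day), -0.01 to 0.07 (Dusp16 in ISO against DMSO at 3 days), -0.13 to 0.02 (Dusp4 in BML-260 at 3 days against BML-260 at 1 day), -0.02 to 0.29 (Dusp4 in DMSO at 3 days against DMSO at 1 day), -0.08 to 0.06 (Dusp5 in BML-260 against DMSO at 1 day), -0.16 to 0.30 (Dusp5 in BML-260 against ISO), -0.02 to 0.26 (Dusp5 in DMSO at 3 days against DMSO at 1 day), -0.31 to 0.15 (Dusp5 in ISO against DMSO at 1 day), -0.44 to 0.01 (Dusp5 in ISO against DMSO at 3 days), 0.00 to 0.35 (Dusp6 in DMSO at 3 days against DMSO at 1 day), -0.11 to 0.07 (Dusp7 in BML-260 against DMSO at 1 day), -0.06 to 0.05 (Dusp7 in BML-260 at 3 days against BML-260 at 1 day), -0.05 to 0.58 (Dusp8 in BML-260 against ISO), -0.40 to 0.24 (Dusp8 in ISO against DMSO at 1 day), -0.18 to 0.12 (Dusp9 in BML-260 against DMSO at 1 day), -0.07 to 0.29 (Dusp9 in BML-260 against DMSO at 3 days), -0.04 to 0.32 (Dusp9 in BML-260 effect at 3 days minus effect at 1 day), -0.27 to 0.14 (Dusp9 in ISO against DMSO at 3 days).

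The labels do not say that replicate numbers pair libraries, and the differences between the libraries of a group correlated from -0.09 to 0.20 between groups, so the numbers were not used as pairs. Of the 10 pairs of groups 5 were above 0.1. A fit with the replicate block left the number of called phosphatases at 1, 7, 5, 3, 5, 4, 3 and 3 in the 8 comparisons, as in the fit without it. Counts of 53 to 121 for Dusp6 and 62 to 100 for Dusp9 a library limit their precision, and Dusp2, at 1 to 5 counts, could not be tested.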
